A study of Caenorhabditis elegans with 18 samples.

Results

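The cytochrome P450 genes of *Caenorhabditis elegans* outside the *cyp-35* family were examined on whole-worm arrays. Members were all probe sets whose only gene symbol in the platform annotation begins with cyp- and a digit, without those that begin with cyp-35. This gave 67 probe sets for 63 genes. The array holds 22625 probe sets, of which 20766 carry a single symbol, for 17118 genes. *cyp-13B1*, *cyp-23A1*, *cyp-32A1* and *cyp-42A1* each had more than 1 probe set. The *cyp-35* genes, which were left out, have 11 probe sets for 10 genes. Probe sets shared by *cyp-13A11* and *cyp-13A12*, and by *cyp-25A4* and *cyp-25A5*, carry 2 symbols, so these genes were not analysed here.

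Wild-type N2 worms were grown from isolated embryos on *Lactobacillus rhamnosus* CNCM I-3690, on *L. rhamnosus* CNCM I-4317 or on *Escherichia coli* OP50, the usual laboratory food, and were collected after 10 or 3 days of feeding. The study compared the first strain, studied for its antioxidant and longevity effects, with the second *L. rhamnosus* strain as a bacterial control and with OP50 as the reference diet. Each of the 6 groups held 3 arrays, and no group carried a mutation or a drug. RNA came from whole animals in bulk, so a lower value of a gene can stand for fewer cells of a type or for less RNA per cell, and these cannot be told apart. The array methods describe no step that removed offspring from the older cultures.

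Cytochromes P450 are heme enzymes that insert an oxygen atom into lipophilic compounds. Most sit in the endoplasmic reticulum and receive electrons from a single reductase, EMB-8, while a smaller class works in mitochondria. In *C. elegans* the intestine is the main site of the P450s that handle xenobiotics, whereas other members make eicosanoids, sterol-derived hormones or the lipids of the eggshell. By sequence the *cyp-29*, *cyp-31*, *cyp-32*, *cyp-37* and *cyp-42* families are relatives of vertebrate CYP4 fatty acid hydroxylases. The *cyp-14*, *cyp-23*, *cyp-33*, *cyp-34* and *cyp-36* families resemble vertebrate CYP2, the *cyp-13*, *cyp-25* and *cyp-43* families resemble vertebrate CYP3, and *cyp-44A1* is of the mitochondrial type.

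All values are log2 levels after RMA normalization. A difference was called when its adjusted p from limma was under 0.10. Array medians lay between 1.27 and 1.4, and arrays of 1 group correlated at 0.981 to 0.996 over all probe sets. Many P450 probe sets were dim. Of the 67, 26 (38.8%) stayed below the array median on all 18 arrays, against 8514 (37.6%) of all probe sets, 14 lay above it on every array, and 27 were above it on some arrays only. The 14 that were above it throughout were *cyp-25A2*, *cyp-29A2*, *cyp-31A1*, *cyp-31A2*, *cyp-31A3*, *cyp-31A5*, 1 of the pair for *cyp-32A1*, *cyp-33A1*, *cyp-33C8*, *cyp-34A8*, *cyp-34A9*, *cyp-37A1*, *cyp-43A1* and *cyp-44A1*. For the dim members a difference between groups was hard to measure, and 1 of the 26 (*cyp-33D3*) was called in any comparison.

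The main pattern was one of age. Between 10 and 3 days, 17 P450 probe sets rose and 1 fell on CNCM I-3690, 17 rose and 4 fell on CNCM I-4317, and 10 rose and 2 fell on OP50. Over the whole array, 17.3% of probe sets rose and 12.6% fell on CNCM I-3690, 15.4% rose and 10% fell on CNCM I-4317, and 5.41% rose and 5.37% fell on OP50. The members that rose made up 25.4%, 25.4% and 14.9% of the 67 on the 3 diets in that order, and those that fell made up 1.49%, 5.97% and 2.99%. The median difference of the members was 0.13 against 0.04 for all probe sets on CNCM I-3690, 0.11 against 0.03 on CNCM I-4317, and 0.06 against 0.02 on OP50. Called in at least 1 diet were 25 members (37.3%), a share close to the 37.8% of all probe sets. Among the 42 that were called on no diet, differences ran from -0.25 for *cyp-25A6* on OP50 to 0.92 for *cyp-33A1* on CNCM I-3690. The P450s as a whole thus changed about as often as other genes, and their calls were mostly rises.

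The signs follow the sample labels, with 10 days minus 3 days and *L. rhamnosus* minus OP50. The fold change lists published with the study carry the opposite sign for both comparisons of CNCM I-3690 with OP50.

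**Figure D1:**
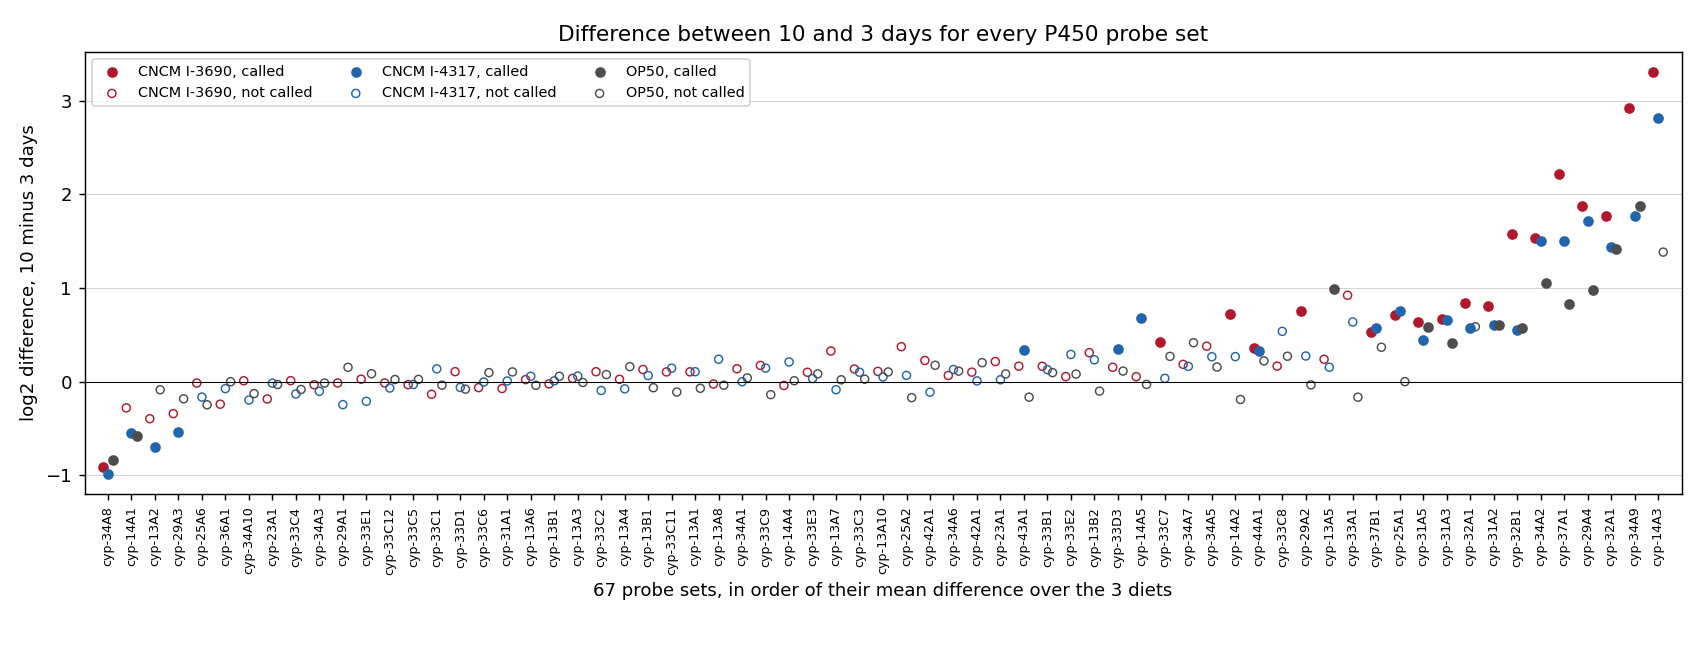
The log2 difference between 10 and 3 days (vertical axis) for each of the 67 P450 probe sets (horizontal axis, in order of the mean difference over the 3 diets), coloured by diet, with filled points for differences called at an adjusted p under 0.10. Most probe sets lie near 0, *cyp-34A8* and *cyp-14A1* stand at the low end, and *cyp-34A9* and *cyp-14A3* at the high end.

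Rises on all 3 diets were called for 9 probe sets (13.4% of the members), against 3.65% of all probe sets. They belong to *cyp-29A4*, *cyp-31A2*, *cyp-31A3*, *cyp-31A5*, *cyp-32A1*, *cyp-32B1*, *cyp-34A2*, *cyp-34A9* and *cyp-37A1*, so 7 of the 9 are CYP4 relatives. Of these 7, 3 are *cyp-31A* genes, and how far those were measured apart was not tested. The probe set of *cyp-34A8* (1.49% of the members, against 3.95% of all probe sets) fell on all 3 diets. The 3 comparisons use separate arrays, but 1 fit to all arrays gave each probe set a single estimate of spread for all of them.

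Among the CYP4 relatives, 15 probe sets for 13 genes, 10 rose and none fell on CNCM I-3690, 9 rose and 1 fell on CNCM I-4317, and 7 rose and none fell on OP50. Over the whole array 17.3%, 15.4% and 5.41% of probe sets rose and 12.6%, 10% and 5.37% fell on those diets. The median differences of the CYP4 relatives were 0.67, 0.55 and 0.41. Grouping by vertebrate relatives was added to the planned grouping by subfamily. Fatty acid hydroxylation is the reaction best known from this clan in vertebrates, and the substrates of most worm members are unknown.

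*cyp-37A1* stood at 5.45, 5.42 and 5.67 at 10 days and 3.51, 3.29 and 3.08 at 3 days on CNCM I-3690. On CNCM I-4317 it stood at 5.16, 4.01 and 5.16 at 10 days and 3.01, 3.47 and 3.35 at 3 days. On OP50 it stood at 4.01, 4.40 and 4.49 at 10 days and 3.19, 3.71 and 3.50 at 3 days. The older arrays were above the younger ones on every diet without overlap. The rises were 2.22 ± 0.25 (standard error; 4.66-fold, adjusted p = 1.11e-05), 1.50 ± 0.25 (2.84-fold, adjusted p = 0.000442) and 0.83 ± 0.25 (1.78-fold, adjusted p = 0.0535) by limma. The call on OP50 was lost without replicate 2 or 3 at 10 days or replicate 1 or 3 at 3 days (adjusted p of 0.116 to 0.198).

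*cyp-29A4* was at 2.46, 2.26 and 3.34 at 10 days and 0.81, 0.94 and 0.69 at 3 days on CNCM I-3690. On CNCM I-4317 it was at 3.22, 3.06 and 3.17 at 10 days and 0.80, 1.92 and 1.58 at 3 days, and on OP50 at 2.51, 2.44 and 2.37 at 10 days and 1.55, 1.40 and 1.43 at 3 days. Again no older array overlapped a younger one. It rose by 1.87 ± 0.25 (3.66-fold), 1.71 ± 0.25 (3.28-fold) and 0.98 ± 0.25 (1.97-fold), with adjusted p of 5.16e-05, 0.000134 and 0.0222.

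*cyp-32A1* rose on each diet with its brighter probe set (name ending in s_at), by 1.76 ± 0.29, 1.44 ± 0.29 and 1.42 ± 0.29 (adjusted p = 0.000352, 0.00219 and 0.00526). The 10-day arrays read 3.33, 3.67 and 3.66 on CNCM I-3690, those of CNCM I-4317 read 3.52, 2.39 and 3.11, and those of OP50 read 2.31, 3.67 and 2.71, all above the 3-day arrays, whose highest value was 2.06. The second probe set, which was below the array median on 10 of 18 arrays, gave smaller rises of 0.84 on CNCM I-3690 (adjusted p = 0.00814) and 0.57 on CNCM I-4317 (adjusted p = 0.0708), and 0.59 on OP50 did not pass (adjusted p = 0.116). Its call on CNCM I-4317 was lost without replicate 1 or 3 at either time (adjusted p of 0.161 to 0.272). The direction was thus shared by both probe sets, and the sizes differed.

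*cyp-32B1* stood at 2.79, 2.36 and 2.58 at 10 days and 1.01, 0.77 and 1.21 at 3 days on CNCM I-3690, a rise of 1.58 ± 0.18 (2.99-fold, adjusted p = 1.41e-05). On CNCM I-4317 it stood at 1.46, 1.95 and 1.96 at 10 days and 1.07, 1.30 and 1.34 at 3 days, and on OP50 at 1.58, 2.06 and 1.34 at 10 days and 0.94, 1.09 and 1.24 at 3 days. These smaller rises of 0.55 and 0.57 were also without overlap (adjusted p = 0.0438 and 0.0735). The call on CNCM I-4317 was lost without replicate 2 or 3 at 10 days or replicate 1 at 3 days (adjusted p of 0.138 to 0.159), and that on OP50 without replicate 2 at 10 days or replicate 1 or 2 at 3 days (adjusted p of 0.145 to 0.307, with 0.37 left without the 10-day array).

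**Figure D2:**
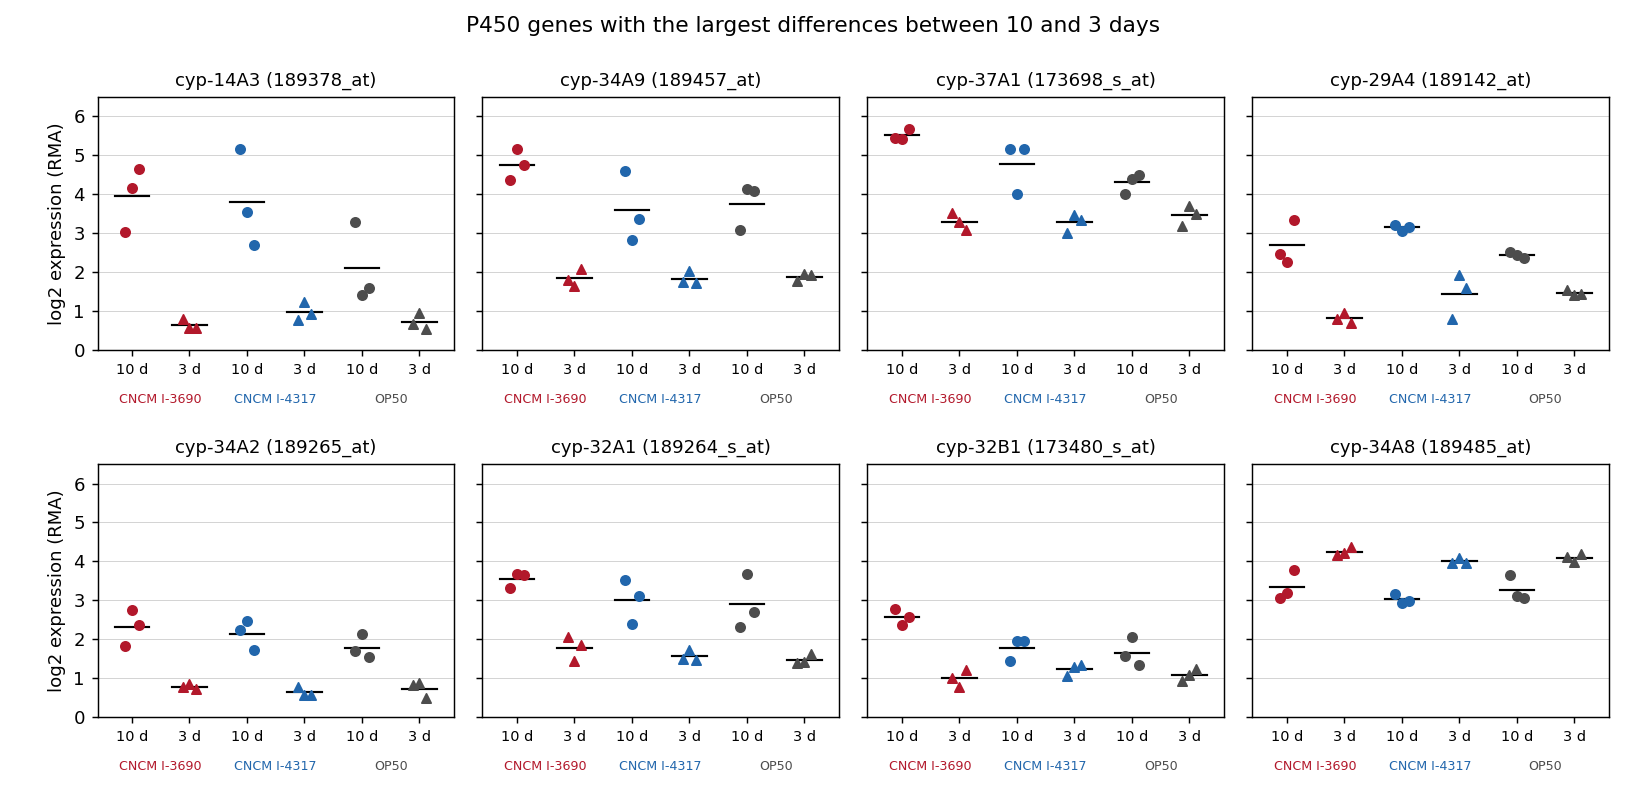
Log2 levels on each array (vertical axis) for 8 P450 probe sets, with circles for 10 days and triangles for 3 days on the 3 diets, and bars at the group means of 3 arrays. The older worms lie above the younger ones in 7 panels and below them for *cyp-34A8*, and *cyp-14A3* spreads widely among the older worms.

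Of the *cyp-31A* genes, all but *cyp-31A1* rose on each diet. CYP-31A2 and CYP-31A3 are required, with the reductase EMB-8, for lipids of the eggshell. *cyp-31A2* was at 5.82, 6.26 and 6.25 at 10 days and 5.28, 5.29 and 5.32 at 3 days on CNCM I-3690. It rose by 0.81 ± 0.15 on CNCM I-3690, 0.60 ± 0.15 on CNCM I-4317 and 0.60 ± 0.15 on OP50 (adjusted p = 0.00096, 0.00993 and 0.0219). *cyp-31A3* rose by 0.67, 0.66 and 0.41 (adjusted p = 0.00177, 0.00246 and 0.0819) and *cyp-31A5* by 0.64, 0.45 and 0.58 (adjusted p = 0.00118, 0.0156 and 0.00619). In none of these did the older arrays overlap the younger ones. *cyp-31A1* did not pass on any diet, with differences of -0.07, 0.01 and 0.11. The names of *cyp-31A2* and *cyp-31A1* end in x_at and s_at, suffixes that mark probes able to match related transcripts, so how far the *cyp-31A* genes were measured apart was not tested. On OP50 the call of *cyp-31A2* was lost without replicate 2 at 10 days (adjusted p = 0.117). That of *cyp-31A3* was lost without replicate 1 or 3 at 10 days or any 1 replicate at 3 days (adjusted p of 0.138 to 0.24).

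Beside these rises, 12, 11 and 3 of 13 markers of oocytes and eggshell rose on CNCM I-3690, CNCM I-4317 and OP50, with median differences of 0.72, 0.62 and 0.21. Of all probe sets, 17.3%, 15.4% and 5.41% rose. The mean level of the markers lay between 8.87 and 9.03 at 10 days and between 8.22 and 8.39 at 3 days on CNCM I-3690. On OP50 it lay between 8.72 and 9.05 at 10 days and between 8.63 and 8.73 at 3 days. The markers' part in the *cyp-31A* rises was not tested.

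**Figure D3:**
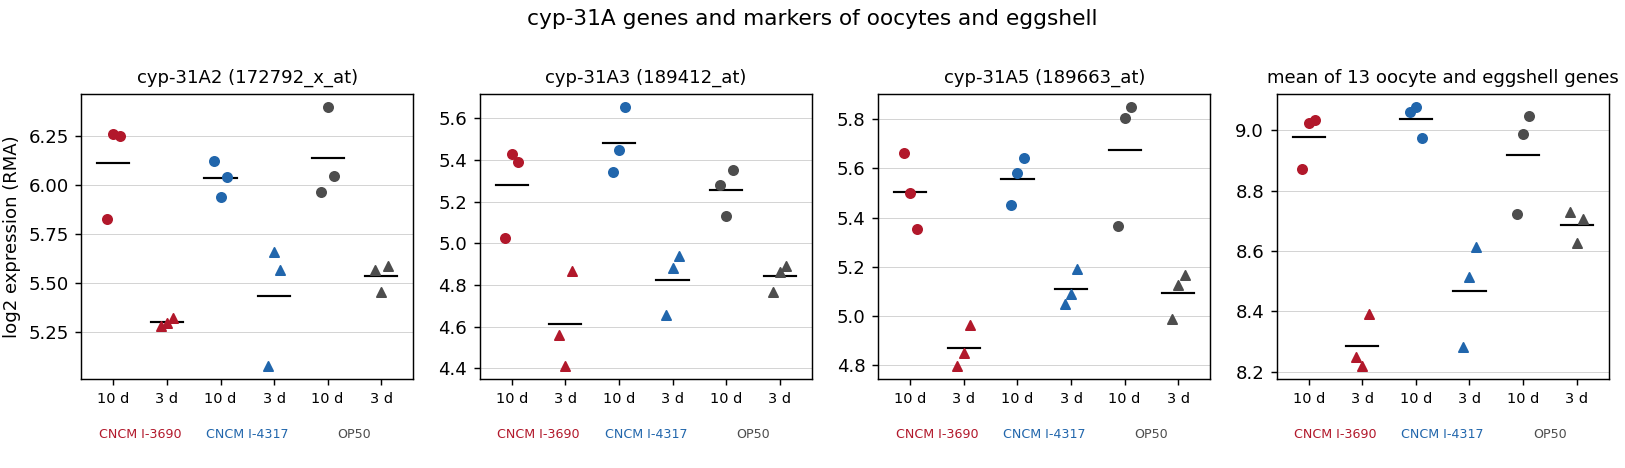
Log2 levels on each array (vertical axes, which differ between panels and do not start at 0) for *cyp-31A2*, *cyp-31A3*, *cyp-31A5* and the mean of 13 oocyte and eggshell markers, with circles for 10 days, triangles for 3 days and bars at group means. In each of the 3 gene panels the older worms lie above the younger ones on every diet, and on OP50 the marker means of the older and younger worms overlap.

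The remaining CYP4 relatives gave smaller differences. *cyp-37B1* rose by 0.53 on CNCM I-3690 and by 0.57 on CNCM I-4317 (adjusted p = 0.0659 and 0.0526), and 0.37 on OP50 did not pass. The first call was lost without replicate 1 at 10 days or any 1 replicate at 3 days (adjusted p of 0.1 to 0.282, with 0.34 left without the 10-day array), the second without replicate 1 or 3 at either time (adjusted p of 0.133 to 0.174). *cyp-29A2* rose on CNCM I-3690 by 0.76 (adjusted p = 0.0146), with 4.79, 3.90 and 4.21 at 10 days and 3.30, 3.33 and 3.98 at 3 days, which overlap. *cyp-29A3*, which takes part in eicosanoid synthesis, was the only member of this clan to fall, by 0.53 on CNCM I-4317 (adjusted p = 0.0581). That call was lost without replicate 1 or 3 at 10 days or replicate 1 at 3 days (adjusted p of 0.152 to 0.267). *cyp-29A1* and both probe sets of *cyp-42A1* were dim on all arrays and were not called.

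Among the CYP2 relatives, 35 probe sets for 34 genes of which 16 probe sets were dim throughout, 5 rose and 1 fell on CNCM I-3690, 5 rose and 2 fell on CNCM I-4317, and 2 rose and 2 fell on OP50. The array shares that rose were 17.3%, 15.4% and 5.41%, and those that fell were 12.6%, 10% and 5.37%. Median differences of the CYP2 relatives were 0.11, 0.10 and 0.03. This group held the 2 largest rises on CNCM I-3690 and on each diet the largest fall, and several of its genes lie side by side.

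*cyp-34A9* stood at 4.37, 5.16 and 4.76 at 10 days and 1.79, 1.64 and 2.08 at 3 days on CNCM I-3690. On CNCM I-4317 it stood at 4.60, 2.82 and 3.36 at 10 days and 1.74, 2.02 and 1.72 at 3 days, and on OP50 at 3.07, 4.12 and 4.07 at 10 days and 1.78, 1.95 and 1.91 at 3 days. The rises of 2.92 ± 0.35 (7.59-fold, adjusted p = 1.89e-05), 1.77 ± 0.35 (3.42-fold, adjusted p = 0.00174) and 1.88 ± 0.35 (3.67-fold, adjusted p = 0.00251) came with no overlap between older and younger arrays.

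*cyp-34A8* went the other way. It stood at 3.07, 3.19 and 3.77 at 10 days and 4.17, 4.22 and 4.37 at 3 days on CNCM I-3690, at 3.16, 2.93 and 2.99 at 10 days and 3.97, 4.10 and 3.97 at 3 days on CNCM I-4317, and at 3.64, 3.11 and 3.05 at 10 days and 4.11, 3.99 and 4.20 at 3 days on OP50. Every older array was below every younger one of its diet. The gene fell by 0.91 ± 0.17, 0.98 ± 0.17 and 0.83 ± 0.17 (adjusted p = 0.000877, 0.000563 and 0.00468).

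These 2 genes are neighbours in a run of 6 on chromosome V, in the order *cyp-34A5*, *cyp-34A6*, *cyp-34A7*, *cyp-34A8*, *cyp-34A9* and *cyp-34A10* in the RefSeq annotation. The other 4 were called on no diet. *cyp-34A5* reached 0.38 on CNCM I-3690 (adjusted p = 0.105) and *cyp-34A7* 0.42 on OP50 (adjusted p = 0.17), while *cyp-34A6* and *cyp-34A10* were below the median on every array. The probe sets of *cyp-34A5* and *cyp-34A7* were each below the array median on 17 of 18 arrays. The neighbours *cyp-34A8* and *cyp-34A9* thus moved in opposite directions with age, and the 4 genes not called were dim on most or all arrays.

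*cyp-34A2*, next to *cyp-34A1* elsewhere on chromosome V, was at 1.82, 2.76 and 2.37 at 10 days and 0.77, 0.85 and 0.73 at 3 days on CNCM I-3690. On CNCM I-4317 it was at 2.24, 2.46 and 1.72 at 10 days and 0.77, 0.56 and 0.59 at 3 days, and on OP50 at 1.70, 2.13 and 1.55 at 10 days and 0.83, 0.87 and 0.50 at 3 days. It rose by 1.53 ± 0.22, 1.50 ± 0.22 and 1.06 ± 0.22 without overlap (adjusted p = 9.27e-05, 0.000132 and 0.00512). Its neighbour *cyp-34A1* was dim on all 18 arrays and differed by 0.14, 0.00 and 0.04, none of which passed.

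*cyp-14A3*, a gene that is induced in worms by some polychlorinated biphenyls, had the largest rise of all members on both *L. rhamnosus* diets. It was at 3.04, 4.16 and 4.65 at 10 days and 0.81, 0.56 and 0.57 at 3 days on CNCM I-3690. On CNCM I-4317 it was at 5.15, 3.53 and 2.71 at 10 days and 0.77, 1.24 and 0.93 at 3 days, and on OP50 at 3.29, 1.42 and 1.60 at 10 days and 0.66, 0.94 and 0.55 at 3 days. It rose by 3.31 ± 0.54 (9.89-fold, adjusted p = 0.000288) on CNCM I-3690 and 2.82 ± 0.54 (7.05-fold, adjusted p = 0.00131) on CNCM I-4317. On OP50 a difference of 1.38 ± 0.54 did not pass (adjusted p = 0.147), although all older arrays were above the younger ones.

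The older worms varied widely in this gene, with an SD of 0.83, 1.24 and 1.03 on the 3 diets against 0.14, 0.24 and 0.20 in the younger ones (n = 3 each). The standard error, the same on each diet, pools these spreads. The OP50 array with the high value (replicate 1 at 10 days) also stood apart in tissue markers. Its mean over 6 muscle markers was 5.79 against 4.26 and 4.23 in the other OP50 arrays of that age, that over 4 hypodermis markers 3.34 against 1.81 and 1.32, and that over 9 intestine markers 4.08 against 3.49 and 3.44. The CNCM I-4317 array with the high value (replicate 1 at 10 days) had a mean of 5.07 over 23 major sperm protein probe sets, against 1.93 and 1.84. On CNCM I-3690 the order was the reverse, since replicates 1, 2 and 3 at 10 days had sperm means of 5.43, 4.86 and 1.73 beside *cyp-14A3* levels of 3.04, 4.16 and 4.65. The part of these tissue differences in the spread of *cyp-14A3* was not tested.

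On chromosome X, *cyp-14A1*, *cyp-14A2* and *cyp-14A3* lie next to each other in that order. No adjoining pair of these was called in opposite directions on the same diet. On CNCM I-4317 *cyp-14A1* fell and *cyp-14A3* rose, while *cyp-14A2* between them was not called. The probe sets of *cyp-14A1* and *cyp-14A2* were below the array median on 14 and 15 of 18 arrays. *cyp-14A1* fell by 0.55 on CNCM I-4317 and by 0.57 on OP50 (adjusted p = 0.0105 and 0.0183), from arrays that did not overlap, while its difference of -0.28 on CNCM I-3690 did not pass. *cyp-14A2* rose by 0.73 on CNCM I-3690 (adjusted p = 0.0224), with 1.10, 2.05 and 1.97 at 10 days and 1.08, 1.07 and 0.78 at 3 days, and was not called on the other diets. That call was lost without replicate 2 or 3 at 10 days (adjusted p = 0.12 and 0.102). *cyp-14A5* rose by 0.68 on CNCM I-4317 (adjusted p = 0.0451), where replicate 1 at 10 days read 3.09 against 2.15 and 1.96, and fell short of the threshold without that array or without replicate 1 or 2 at 3 days (adjusted p of 0.102 to 0.225, with 0.33 left without the 10-day array).

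The large *cyp-33* family contributed little. *cyp-33C7* rose by 0.43 on CNCM I-3690 (adjusted p = 0.008) and the dim *cyp-33D3* by 0.35 on CNCM I-4317 (adjusted p = 0.034), and the *cyp-33D3* call was lost without replicate 1 or 3 at 10 days or replicate 1 at 3 days (adjusted p of 0.103 to 0.133). *cyp-33E2*, which makes eicosanoids in the pharynx, differed by 0.06, 0.29 and 0.08 and *cyp-33E1* by 0.03, -0.21 and 0.09, none called. *cyp-33A1* varied between 3.51 and 6.23 within the older worms and between 3.68 and 5.70 within the younger ones, and its differences of 0.92, 0.64 and -0.16 did not pass. *cyp-36A1*, which acts in egg laying downstream of the hypoxia factor HIF-1, was below the array median on 16 of 18 arrays and differed by -0.24, -0.07 and 0.00, none called. Both probe sets of *cyp-23A1* were dim throughout and were not called.

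Among the CYP3 relatives, 16 probe sets for 15 genes with 7 dim throughout, 1 rose and none fell on CNCM I-3690, 2 rose and 1 fell on CNCM I-4317, and 1 rose and none fell on OP50. The array shares that rose were 17.3%, 15.4% and 5.41%, and those that fell were 12.6%, 10% and 5.37%. *cyp-25A1* rose by 0.72 on CNCM I-3690 and by 0.76 on CNCM I-4317 (adjusted p = 0.0141 and 0.0121). It was at 1.96, 2.59 and 1.86 at 10 days and 1.14, 1.48 and 1.51 at 3 days on CNCM I-4317. On OP50 it was at 1.75, 1.32 and 1.72 at 10 days and 1.48, 1.44 and 1.87 at 3 days, which overlap. The adjoining *cyp-25A2* was called on no diet, with differences of 0.37, 0.07 and -0.17.

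A run of 7 genes on chromosome II, *cyp-13A2* to *cyp-13A8*, held 3 genes that were dim throughout, *cyp-13A3*, *cyp-13A4* and *cyp-13A6*. *cyp-13A2* fell by 0.69 on CNCM I-4317 (adjusted p = 0.00706), with 0.53, 0.77 and 0.43 at 10 days and 1.40, 1.31 and 1.10 at 3 days. Its probe set was below the array median on 17 of 18 arrays, and that of *cyp-13A5* on 15. *cyp-13A5* was called higher on OP50 by 0.99 (adjusted p = 0.0804), where the older arrays read 3.05, 1.36 and 1.12 and the younger ones 0.95, 0.91 and 0.70. The value of 3.05 came from the OP50 array described above, and without it the difference was 0.39 (adjusted p = 0.116). The call was also lost without any 1 of the younger arrays (adjusted p of 0.141 to 0.21). *cyp-13A7*, an enzyme induced by rifampicin, differed by 0.33, -0.08 and 0.02, none called. *cyp-43A1* rose by 0.34 on CNCM I-4317 (adjusted p = 0.0322), a call lost without replicate 1 at 3 days (adjusted p = 0.124), after cyclic loess scaling (0.19, adjusted p = 0.342) and with the trend and robust options of eBayes (adjusted p = 0.143).

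The mitochondrial *cyp-44A1* was bright on all arrays. It was at 5.21, 5.33 and 5.60 at 10 days and 4.95, 4.90 and 5.19 at 3 days on CNCM I-3690, and rose by 0.37 on that diet and 0.33 on CNCM I-4317 (adjusted p = 0.0439 and 0.0797). These small rises depended on scaling, being 0.10 on both diets after cyclic loess, where neither passed. The first was lost without replicate 3 at 10 days or replicate 1 or 2 at 3 days (adjusted p of 0.137 to 0.208), the second without replicate 1 or 2 at 10 days or replicate 2 or 3 at 3 days (adjusted p of 0.112 to 0.293), with the trend and robust options (adjusted p = 0.121) and in a fit to arrays of that diet (adjusted p = 0.153).

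Tissue markers moved over the same interval. All 6 muscle markers fell on each diet, 7, 7 and 4 of 9 intestine markers fell on CNCM I-3690, CNCM I-4317 and OP50, and 23, 23 and 20 of 23 major sperm protein probe sets fell. Of 4 hypodermis markers 4, 3 and 2 fell, and of 6 neuronal markers 1 rose on each diet and 1 fell on CNCM I-4317. Of all probe sets, 12.6%, 10% and 5.37% fell on the 3 diets. The mean of the intestine markers lay between 3.56 and 3.75 at 10 days and between 4.88 and 5.04 at 3 days on CNCM I-3690, between 3.39 and 3.88 at 10 days and between 4.60 and 4.79 at 3 days on CNCM I-4317, and between 3.44 and 4.08 at 10 days and between 4.14 and 4.40 at 3 days on OP50. Over the same interval 12, 11 and 3 of 13 oocyte and eggshell markers rose on CNCM I-3690, CNCM I-4317 and OP50, where 17.3%, 15.4% and 5.41% of all probe sets did. The part of tissue makeup in the P450 changes was not tested.

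Whether the change with age differed between diets was asked as a difference of differences. No member passed for CNCM I-3690 minus OP50, CNCM I-4317 minus OP50 or CNCM I-3690 minus CNCM I-4317 by limma, where 0.809%, 0.23% and 0% of all probe sets did. At an unadjusted p under 0.05 there were 8, 5 and 3 members, against 13.1%, 9.66% and 5.43% of all probe sets. The nearest were *cyp-37A1*, whose rise was larger on CNCM I-3690 than on OP50 by 1.39 ± 0.35 (adjusted p = 0.112), and *cyp-32B1*, larger by 1.01 ± 0.26 (adjusted p = 0.115). For *cyp-14A3* this difference was 1.92 ± 0.76 (adjusted p = 0.287). For CNCM I-3690 minus OP50, 3 members passed without CNCM I-3690 replicate 3 at 3 days, and 1 passed without CNCM I-3690 replicate 1 or OP50 replicate 2 at 10 days. Rises called on the *L. rhamnosus* diets and not on OP50, as for *cyp-14A3*, *cyp-25A1*, *cyp-37B1*, *cyp-44A1* and the second *cyp-32A1* probe set, were therefore not shown to differ between diets.

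Diets compared at the same age gave few calls. In 10-day worms on CNCM I-3690 against OP50, 2 members were higher and none lower, where 0.358% of all probe sets were higher and 0.181% lower. These were the CYP4 relatives *cyp-32B1* and *cyp-37A1*. The names of both probe sets end in s_at, a suffix that marks probes able to match related transcripts. *cyp-32B1* read 2.79, 2.36 and 2.58 on CNCM I-3690 and 1.58, 2.06 and 1.34 on OP50, a difference of 0.92 ± 0.18 (1.89-fold, adjusted p = 0.0434). *cyp-37A1* read 5.45, 5.42 and 5.67 on CNCM I-3690 and 4.01, 4.40 and 4.49 on OP50, a difference of 1.21 ± 0.25 (2.32-fold, adjusted p = 0.0499). In both genes the diets did not overlap. At an unadjusted p under 0.05 by limma there were 13 of the 67 members in this comparison, against 7.28% of all probe sets.

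Both calls were fragile. That of *cyp-32B1* was lost without CNCM I-3690 replicate 1 or 3 or OP50 replicate 3 (adjusted p of 0.13 to 0.173), and that of *cyp-37A1* without CNCM I-3690 replicate 1, 2 or 3 or OP50 replicate 1 or 2 (adjusted p of 0.119 to 0.181). A fit to the 10-day arrays alone called neither (adjusted p = 0.205 and 0.228). Of 61 tissue markers of intestine, sperm, oocytes, muscle, hypodermis and neurons, none was called for CNCM I-3690 against OP50 at 10 days by limma. At an unadjusted p under 0.05 there were 21 of them, against 7.28% of all probe sets. The mean over major sperm protein probe sets was uneven, at 5.43, 4.86 and 1.73 on CNCM I-3690 and 1.75, 2.31 and 1.73 on OP50, and its part in the P450 differences was not tested.

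With CNCM I-4317 against OP50 at 10 days no member passed, where 0.937% of all probe sets did. At an unadjusted p under 0.05 by limma there were 7 of the 67 members, against 10.7% of all probe sets. *cyp-32B1* differed by 0.13 (95% interval -0.26 to 0.52) and *cyp-37A1* by 0.48 (-0.05 to 1.01). *cyp-14A3* was higher by 1.69 on CNCM I-4317 (0.56 to 2.83, adjusted p = 0.232) and by 1.85 on CNCM I-3690 (0.71 to 2.98, adjusted p = 0.263). Without OP50 replicate 1, the array with the outlying tissue markers, the CNCM I-4317 difference was 2.29 and passed (adjusted p = 0.0665), and without CNCM I-4317 replicate 1 it was 1.02 (adjusted p = 0.524). *cyp-13A5* differed by -0.91 on CNCM I-4317 (adjusted p = 0.294), and by -0.31 without that same OP50 array (adjusted p = 0.514).

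Relative to CNCM I-4317, no member passed on CNCM I-3690 at 10 days, where 0.0177% of all probe sets did. At an unadjusted p under 0.05 by limma there were 7 of the 67 members, against 7.22% of all probe sets. *cyp-32B1* differed by 0.79 (95% interval 0.40 to 1.18, adjusted p = 0.304), *cyp-37A1* by 0.73 (0.20 to 1.26, adjusted p = 0.512) and *cyp-34A9* by 1.16 (0.42 to 1.91, adjusted p = 0.436). *cyp-14A5* was lower on CNCM I-3690 by 0.82 (adjusted p = 0.368), with 1.69, 1.44 and 1.60 on CNCM I-3690 and 3.09, 2.15 and 1.96 on CNCM I-4317. Without CNCM I-4317 replicate 1, which also carried high *cyp-14A3*, the *cyp-14A5* difference was -0.48 (adjusted p = 0.532), while that of *cyp-34A9* was 1.67 and passed (adjusted p = 0.0596). *cyp-14A2*, higher by 0.83 on CNCM I-3690 than on OP50 (adjusted p = 0.172), likewise passed without CNCM I-3690 replicate 1 (1.14, adjusted p = 0.0166). Several large differences at 10 days thus hung on single arrays.

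**Figure D4:**
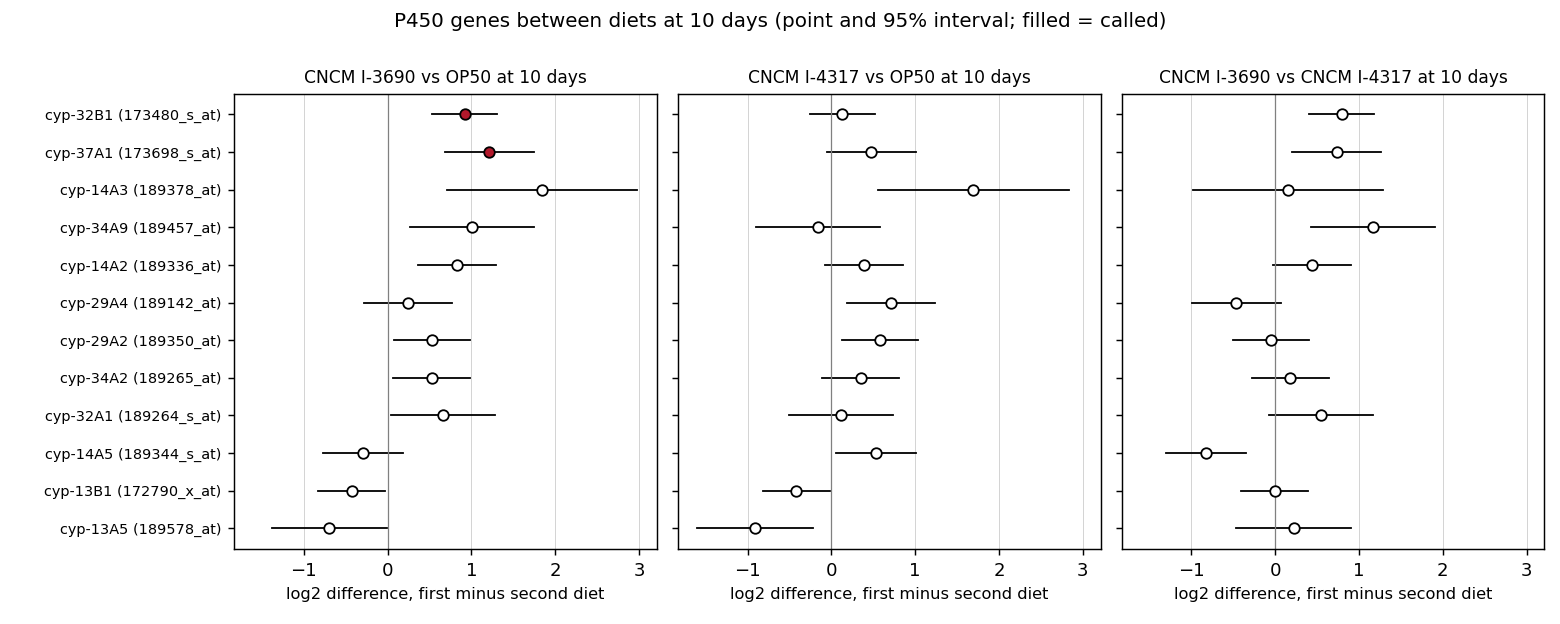
Log2 differences between diets at 10 days (horizontal axes, first diet minus second) for 12 P450 probe sets, with points for the difference, lines for its 95% interval and filled points for calls. *cyp-32B1* and *cyp-37A1* are filled for CNCM I-3690 against OP50, and *cyp-14A3* has the widest intervals in each panel.

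At 3 days, 1 member was lower and none higher on CNCM I-3690 than on OP50, where 2.27% of all probe sets were lower and 3.85% higher. This was *cyp-13B1*, in its probe set with a name ending in x_at, with 0.42, 0.66 and 0.73 on CNCM I-3690 and 1.60, 1.32 and 0.75 on OP50, a difference of -0.62 ± 0.19 (adjusted p = 0.0862). The probe set was below the array median on 16 of 18 arrays, and the other probe set of the gene was dim on all 18 and was not called. The call was lost without CNCM I-3690 replicate 1 or 2 or OP50 replicate 1 or 2 (adjusted p of 0.234 to 0.335), and in a fit to the 3-day arrays alone (adjusted p = 0.139). *cyp-25A1* differed by -0.61 (adjusted p = 0.112) and *cyp-29A4* by -0.65 (adjusted p = 0.172), neither called. *cyp-34A3*, below the array median on 16 of 18 arrays, differed by -0.33 and *cyp-33C1* by 0.24 (adjusted p = 0.155 and 0.477 by limma), neither called. At an unadjusted p under 0.05 there were 5 of the 67 members, against 18.4% of all probe sets. In the same comparison 5 of 13 oocyte and eggshell markers were lower, and 3 of 9 intestine markers, 2 of 6 muscle markers and 18 of 23 major sperm protein probe sets were higher, on CNCM I-3690, and their part in these values was not tested.

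At 3 days no member passed for CNCM I-4317 against OP50 or for CNCM I-3690 relative to CNCM I-4317. Of all probe sets, 0.115% and 0.119% did. At an unadjusted p under 0.05 by limma there were 5 of the 67 members in each, against 9.8% and 8.99% of all probe sets. *cyp-43A1* was lowest on CNCM I-4317, with 3.33, 3.32 and 3.04 on CNCM I-3690, with 2.80, 2.97 and 2.91 on CNCM I-4317 and with 3.15, 3.31 and 3.21 on OP50, so that its arrays did not overlap those of either other diet. Its differences were -0.33 for CNCM I-4317 against OP50 (adjusted p = 0.32) and 0.34 for CNCM I-3690 relative to CNCM I-4317 (adjusted p = 0.334). Without CNCM I-3690 replicate 3 the second became 0.43 and passed (adjusted p = 0.0599), as did *cyp-29A2*, lower by 0.76 on CNCM I-3690 than on CNCM I-4317 (adjusted p = 0.0819). *cyp-14A4*, below the array median on all 18 arrays, differed by -0.25 for CNCM I-4317 against OP50 (adjusted p = 0.557). *cyp-34A3* differed by -0.32 for CNCM I-3690 relative to CNCM I-4317 (adjusted p = 0.433). At 10 days it differed by -0.35 for CNCM I-3690 against OP50 and by -0.25 relative to CNCM I-4317 (adjusted p = 0.443 and 0.698). No *cyp-14A4* or *cyp-34A3* difference was called by limma.

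For contrast, of 11 *cyp-35* probe sets 3 were higher at 10 days on CNCM I-3690 than on OP50 and 3 on CNCM I-4317 than on OP50, all of *cyp-35A3* and *cyp-35C1*, where 0.358% of all probe sets were higher in the first comparison and 0.937% were called in either direction in the second. At 3 days both probe sets of *cyp-35C1* were lower on CNCM I-3690 than on OP50, by -0.73 and -1.14 (adjusted p = 0.0289 and 0.00417), where 2.27% of all probe sets were lower. Between 10 and 3 days 6, 5 and 2 of 11 rose on CNCM I-3690, CNCM I-4317 and OP50, and none fell. Of all probe sets, 17.3%, 15.4% and 5.41% rose.

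Genes that work with P450s were examined beside them. Of lists of partners, all 4 electron carriers, all 5 genes of steroid hormone synthesis and signalling, both epoxide hydrolases and 9 of 11 regulators were measured. None of these 20 genes was called in the 6 diet comparisons by limma. The array shares were highest for CNCM I-3690 against OP50 at 3 days, at 3.85% higher and 2.27% lower. In that comparison 4 of the 20 reached an unadjusted p under 0.05 by limma, where 18.4% of all probe sets did. For CNCM I-4317 against OP50 at 3 days 1 did, beside 9.8% of all probe sets. For CNCM I-3690 relative to CNCM I-4317 at 3 days 6 did, beside 8.99%. At 10 days 4, 3 and 3 did in the same order, beside 7.28%, 10.7% and 7.22%. Between 10 and 3 days 2 rose and 2 fell on CNCM I-3690, 5 rose and 2 fell on CNCM I-4317, and 1 rose and 2 fell on OP50. Over the whole array 17.3%, 15.4% and 5.41% of probe sets rose and 12.6%, 10% and 5.37% fell on those diets.

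*daf-36*, the Rieske oxygenase that begins dafachronic acid synthesis, fell on all 3 diets, by 1.41, 0.99 and 0.72 (adjusted p = 5.25e-06, 0.000166 and 0.00512). It was at 0.81, 0.68 and 0.64 at 10 days and 2.04, 2.51 and 1.81 at 3 days on CNCM I-3690. *nhr-8*, a nuclear receptor needed for xenobiotic resistance, fell by 1.50 on CNCM I-3690 and by 1.07 on CNCM I-4317 (adjusted p = 9.71e-05 and 0.0019), and was not called on OP50. *nhr-86*, another nuclear receptor, rose by 0.94 and 0.84 on the *L. rhamnosus* diets (adjusted p = 0.00132 and 0.00358). On OP50 it was not called, with means of 4.75 at 10 days and 4.29 at 3 days. None of the 20 partner genes passed for a difference of the change with age between diets. The array shares were 0.809% and 0.23% for CNCM I-3690 and CNCM I-4317 minus OP50, and 0% for CNCM I-3690 minus CNCM I-4317. Partner calls on some diets only were therefore not shown to differ between diets.

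The reductase gene *emb-8* rose by 0.53 on CNCM I-4317 (adjusted p = 0.00666), with 4.48, 4.32 and 4.75 at 10 days and 3.81, 4.10 and 4.05 at 3 days. On CNCM I-3690 it read 4.35, 4.20 and 4.30 at 10 days and 4.54, 4.25 and 4.19 at 3 days, which overlap. The other calls were rises of *nhr-49* (0.65) on CNCM I-4317, of *aha-1* on CNCM I-3690 (0.35) and CNCM I-4317 (0.43) and of *dhs-16* on CNCM I-4317 (0.45) and OP50 (0.47), and a fall of the epoxide hydrolase *ceeh-2* by 0.87 on OP50. *daf-9*, the P450 of dafachronic acid synthesis whose symbol falls outside the naming rule, was called in no comparison.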

How the data were processed

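Whole-worm RNA was measured on 18 Affymetrix arrays in 6 groups of 3. The deposited values are log2 expression values that the authors obtained with RMA (background correction, quantile normalization and probe summarization), and the version is not given in the sources used here. Groups and replicate numbers come from the sample titles. The methods speak of 4 biological replicates per condition, the labels hold 3 arrays per group, and p-values measure the spread between these arrays, whose number limits the precision. Genes were named from the platform annotation, and 60 of 63 member genes matched the RefSeq table (assembly WBcel235) by gene ID, used for names and neighbours only. Nothing was filtered. A model of 6 group means was fitted to 22625 probe sets in limma 3.58.1 (R 4.3.3; 12 residual and 4.09 prior degrees of freedom), with Benjamini-Hochberg adjustment within each of 12 comparisons and a threshold of 0.10 (the methods state 0.01, an alternative here, while the published lists run wider), after a trial of the code on simulated data. The fold change lists published with the study were not used.

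The text names members called between diets, the largest called changes with age whose arrays do not overlap, the 3 highest and 3 lowest moderated t between diets, and members with a described role. Other genes named are the rest of the called members and neighbours of these, chosen after their values were seen. The members, marker lists and partner lists were chosen with earlier results of these data known. The planned grouping was by subfamily of the symbol, and the grouping by vertebrate relatives was added to it. Alternatives were the threshold, replicate block, filter on dim probe sets, median centring, cyclic loess, eBayes with trend and robust, control probe sets, probe set choice, arrays in the fit, and leaving out each array. Same-numbered replicates deviated together (r over 0.1) in 11 of 27 pairs (r of -0.317 to 0.474), so the numbers were not treated as pairs.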

Additional observations from a re-analysis of the deposited data

How the results depend on the processing

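Of 54 called differences of P450 probe sets, 34 stayed called in every alternative at the 0.10 threshold, 20 were lost in at least 1, and 0 changed sign. Of 33 named differences that were not called, 6 passed in at least 1 alternative. Over the 12 counts of called members, 115 of 129 alternatives other than leaving out an array were within 1.5 times. For CNCM I-3690 against OP50 at 3 days the count of 1 became 0 at thresholds of 0.05 and 0.01, with the replicate block and with only probe sets that have no suffix letter, and 2 with median centring and with eBayes trend and robust. At 10 days the count of 2 became 0 at 0.01, without suffixed probe sets and in a fit to arrays of that time. Between 10 and 3 days at 0.01 the counts were 10 on CNCM I-4317 (21 at 0.10) and 5 on OP50 (12 at 0.10). For the change with age on CNCM I-3690 minus that on OP50, the count of 0 became 2 with a filter at the 40th percentile, 1 with median centring and 1 with eBayes trend and robust. The replicate block changed no other call count by over 1.5 times, giving 18, 21 and 12 calls with age, as without it. Leaving out 1 array gave 0 to 1 calls for CNCM I-3690 against OP50, 0 for CNCM I-4317 against OP50 and 0 to 2 for CNCM I-3690 relative to CNCM I-4317, all at 3 days. At 10 days the ranges were 0 to 2, 0 to 1 and 0 to 1. Calls with age ranged from 16 to 20 on CNCM I-3690, 14 to 20 on CNCM I-4317 and 8 to 12 on OP50, and differences of age effects from 0 to 3 for CNCM I-3690 minus OP50, with 0 for the other pairs. Over all probe sets, the share of calls that were higher for CNCM I-3690 against OP50 at 3 days was 62.9%, 52.7% with median centring and 85.2% with cyclic loess. With age it was 57.9%, 69.9% and 40.1% on CNCM I-3690, and 60.6% and 46.2% with cyclic loess on CNCM I-4317. For the change with age on CNCM I-3690 minus OP50 it was 40.4%, and 25.1% with cyclic loess. Cyclic loess also ended the calls with age of *cyp-31A5* on CNCM I-4317 (0.22, adjusted p = 0.182) and *cyp-31A3* on OP50 (0.33, adjusted p = 0.123). The trend and robust options ended those of *cyp-13A5* and *cyp-31A3* on OP50 (adjusted p = 0.126 and 0.112). A fit to arrays of 1 diet ended those of *cyp-13A5* (0.311) and *cyp-32B1* (0.152) on OP50, and of *cyp-14A5* (0.174), *cyp-33D3* (0.119) and the second *cyp-32A1* probe set (0.137) on CNCM I-4317. The cause was not tested.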
